A study of Mus musculus with 17 samples.

Results

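This account covers 8 genes that move lactate, pyruvate and glucose across cell membranes or interconvert lactate and pyruvate, in RNA-seq of the mouse dorsal hippocampus. They were taken by name from the 24498 gene symbols of the count table and not by a rule on their measured values. Earlier results of these data were known when they were chosen. The genes include the monocarboxylate transporters Slc16a1, Slc16a3 and Slc16a7, and Bsg, the membrane chaperone of the first 2. The others are the lactate dehydrogenase subunits Ldha and Ldhb and the glucose transporters Slc2a1 and Slc2a3. All 8 were counted in each of 17 libraries and passed the filter on low counts in every fit. The mice were wild type (WT) or lacked Acss2 (KO), the gene of a nuclear and cytosolic acetyl-CoA synthetase. When 6 months old, they received either tau purified from the frontal cortex of Alzheimer's disease patients (Tau) or phosphate-buffered saline (PBS) by injection into the dorsal hippocampus. The study examined the tissue a further 6 months after injection. Males formed 4 groups of 3 libraries (WT PBS, WT Tau, KO PBS and KO Tau). Females all received Tau and gave 2 WT and 3 KO libraries, so Tau could be compared with PBS in males only. KO and WT mice descended from a common set of heterozygous cages and were then bred as separate homozygous crosses. The labels state that all animals were perfused with fixative before dissection. The study asked how loss of Acss2 changed the response of the tissue to Tau.

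Monocarboxylate transporters carry lactate, pyruvate, ketone bodies and acetate together with a proton. In the brain, MCT1 (Slc16a1) is known from endothelium, oligodendrocytes and astrocytes, MCT4 (Slc16a3) from astrocytes, and MCT2 (Slc16a7) from neurons. Lactate dehydrogenase is a tetramer of LDHA and LDHB subunits, and LDHA-rich tetramers are classically linked to making lactate from pyruvate. GLUT1 (Slc2a1) carries glucose across the blood-brain barrier and into astrocytes, whereas GLUT3 (Slc2a3) is the main neuronal carrier.

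Total counts ran from 14183131 to 22463635 per library, so that a floor of 3 counts stood between 0.134 and 0.212 CPM (counts scaled to a library total of 1000000). Acss2 matched every genotype label, with 44.0 to 54.6 CPM among 8 WT and 3.07 to 8.81 CPM among 9 KO libraries. Summed CA1 pyramidal markers were at 506 to 1158 CPM and dentate granule markers at 289 to 859 CPM, and no dentate granule marker was at 0 in any library. Some libraries stood apart within their groups. Male KO Tau replicate 711 had a summed astrocyte marker level of 7064 CPM, against 3655 and 3860 CPM in replicates 712 and 713, and its value lay nearer to the female libraries (7423 to 8119 CPM) than to any other male library. Its nuclear-retained RNAs summed to 6474 CPM, against 2941 and 3760 CPM in replicates 712 and 713, and its oligodendrocyte markers to 7776 CPM, against 3658 and 4234 CPM. Male KO Tau replicate 713 carried 5404 CPM of choroid plexus markers, the highest of all 17 libraries. Male KO PBS replicate 752 carried 804 CPM of striatal markers, against at most 305 CPM in any other library, and had the lowest CA1 sum, while replicate 751 of that group had the highest dentate granule sum (859 CPM) and the lowest endothelial sum (259 CPM). Not all male KO Tau libraries entered the study's own comparison, and the sources do not say which did, so the sample set tested here is not the study's own. The study tested with DESeq2. Without replicate 711, DESeq2 on the groups compared called 1033 genes for male KO Tau against WT PBS and 1386 against WT Tau. Both counts are close to those the study reported for these comparisons. Results that turn on replicate 711 are given with and without it. The labels number the libraries without naming the animals, and p-values measure the spread between these libraries.

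On a per-length scale, Ldhb was the most abundant of the 8 transcripts, with a median level of 273 RPKM (CPM per kilobase of exon). Bsg followed at 248 RPKM, and Ldhb was above Bsg in 16 of 17 libraries. Ldha stood at a median of 85.2 RPKM and was below Bsg in all 17. Slc2a1, at 24.6 RPKM, was above Slc2a3, at 20.9 RPKM, in 14 of 17 libraries, so these neighbours did not separate in every library. The order rests on the lengths, which merge all annotated exons of a gene (3506 bases for Slc2a1 and 7245 for Slc2a3). By median CPM, Slc2a3 (151) was above Slc2a1 (86.4) and Bsg (449) above Ldhb (429). Slc16a1 had a median level of 9.72 RPKM. The remaining transporters were far lower, with Slc16a7 at 0.730 and Slc16a3 at 0.602 RPKM, and they changed places between libraries, since Slc16a7 was the higher in only 11 of 17. Slc16a3 rested on 27 to 136 counts per library and varied 5.03-fold between the lowest and the highest, whereas Bsg varied 1.48-fold.

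**Figure D1:**
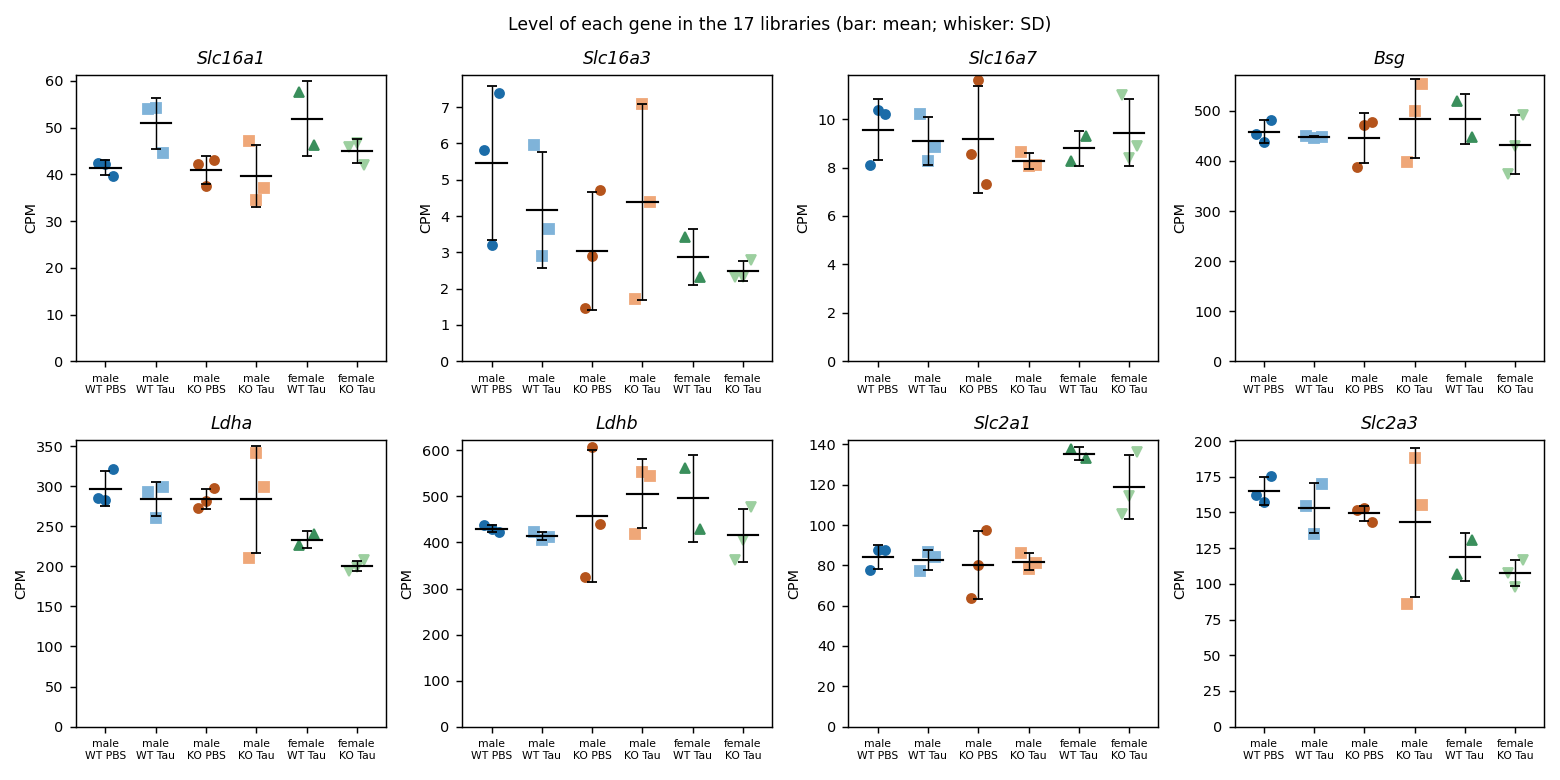
CPM (linear axes from 0) of the 8 genes in each library by group, with the group mean as a bar and the SD as a whisker. Slc2a1 lies higher in the 5 female libraries (105.7 to 137.6 CPM) than in the 12 male libraries (63.6 to 97.4 CPM), and in male KO Tau 1 library is low for Ldha (210.5 CPM) and Slc2a3 (85.7 CPM).

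None of these genes was called for loss of Acss2 or for injection of Tau in the main test, edgeR's quasi-likelihood test with Benjamini-Hochberg adjustment over all genes tested. In WT males, Tau against PBS called 0 of the 8 genes, where 0% of 15098 genes were called and 281 genes had an unadjusted p under 0.05. KO PBS against WT PBS males called 0 of 8, with 0.00662% of all genes called, which was Acss2 alone. Male KO Tau against male WT PBS called 0 of 8, again with 0.00662% of all genes. Male KO Tau against male WT Tau called 0 of 8, with 0.00662% of all genes. Male KO Tau against male KO PBS called 0 of 8 (0% of all genes), as did the genotype by Tau interaction in males (0%) and Tau against PBS averaged over both male genotypes (0%). Among females under Tau, KO against WT called 0 of 8, with 0.00649% of all genes called. The sex by genotype interaction under Tau called 0 of 8 (0% of all genes). Averaged over its 3 strata (male PBS, male Tau and female Tau), KO against WT called 0 of 8, with 0.00641% of all genes called. In that last comparison the log2 fold changes of the 8 genes ran from -0.28 to 0.08 with a median of -0.05, beside a median of 0.00 over all genes. By DESeq2 and by voom on the same libraries, 0 of 8 genes were called in these 10 comparisons as well. An unadjusted p under 0.05 was reached in these 10 comparisons by Slc16a1 on 2 occasions and by Ldhb once, as described below. Precision differed between the genes. The 95% interval of the averaged KO effect was -0.14 to 0.17 for Bsg and -0.21 to 0.10 for Slc2a1, but -0.88 to 0.32 for Slc16a3.

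Sex, by contrast, separated 2 of the 8. Female against male Tau libraries, averaged over genotype, called Slc2a1 higher and Ldha lower, which is 2 of 8 genes where 23.8% of 15419 genes were called, so the share was near the background. The test for any difference among the 6 groups called Slc2a1 and Ldha as well, with 19.0% of 15594 genes called. The female libraries carry their own series of library numbers and there were no female PBS libraries, so sex cannot be told apart from whatever else distinguishes that series of libraries.

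**Figure D2:**
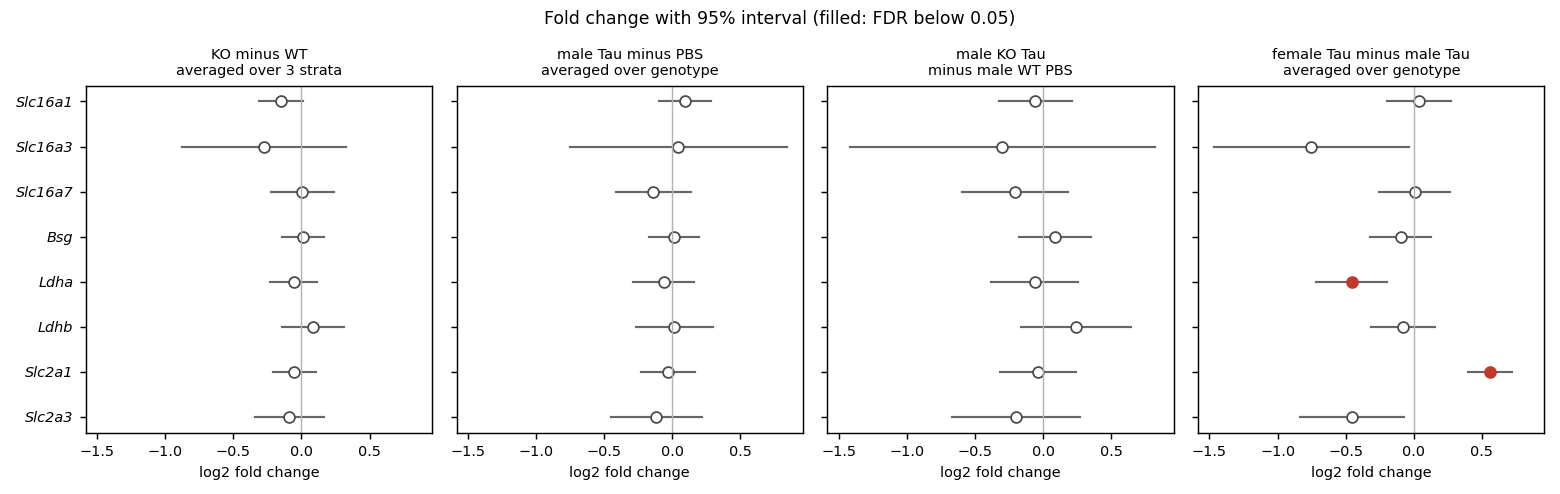
Log2 fold changes of the 8 genes (points) with 95% intervals (lines) in 4 comparisons by edgeR's quasi-likelihood test, with filled points for an adjusted p below 0.05. Only in the female against male comparison are points filled, for Slc2a1 (0.56) and Ldha (-0.46), and the Slc16a3 intervals are the widest.

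Slc16a1 (chromosome 3, 104638668 to 104658462, plus strand, GRCm38) was at 42.5, 42.2 and 39.6 CPM in male WT PBS, at 53.9, 54.2 and 44.7 CPM in male WT Tau, at 42.2, 37.5 and 43.0 CPM in male KO PBS, and at 47.1, 34.6 and 37.2 CPM in male KO Tau. All 3 male WT Tau libraries were above the 3 male WT PBS libraries, whereas the KO Tau libraries lay on both sides of the KO PBS libraries. The log2 difference between Tau and PBS in WT males was 0.28 ± 0.12 (SE), with an unadjusted p of 0.0411 and an edgeR adjusted p of 1.00. Between male KO Tau and male WT Tau it was -0.34 ± 0.12 (SE), with an adjusted p of 0.927. The interaction of genotype and Tau, which tests whether the Tau effect differed between WT and KO males, was -0.37 with a 95% interval of -0.75 to 0.01 and an adjusted p of 0.996. Female libraries were at 57.7 and 46.2 CPM in WT Tau and at 46.0, 46.8 and 42.0 CPM in KO Tau, with overlapping ranges between sexes. Replicate 711 was the highest of the KO Tau males for this gene. Without it, the difference between male KO Tau and male WT Tau was -0.49 by DESeq2 on those groups alone, with an adjusted p of 0.0041, in a setting that called 1386 of 15011 genes. By edgeR without the same library, 0 of the 8 genes were called in that comparison, and 1 of 15268 genes overall.

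Slc16a3 (chromosome 11, 120948480 to 120960868, plus strand) encodes the low-affinity carrier best known for exporting lactate. It was at 5.8, 3.2 and 7.4 CPM in male WT PBS and at 6.0, 2.9 and 3.6 CPM in male WT Tau. The KO males spread as widely, with 1.5, 2.9 and 4.7 CPM under PBS and 1.7, 7.1 and 4.4 CPM under Tau. Female libraries were at 3.4 and 2.3 CPM in WT Tau and at 2.3, 2.3 and 2.8 CPM in KO Tau, within the male range. The female minus male difference was -0.75 ± 0.33 (SE) in log2, with an edgeR adjusted p of 0.110. Without replicate 711, the lowest male Tau library, the difference was -0.92 with an adjusted p of 0.0106, so the call depended on that library.

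Slc16a7 (chromosome 10, 125219270 to 125389465, minus strand) encodes the high-affinity neuronal carrier. Its level was 7.3 to 11.6 CPM over all 17 libraries, with group means from 8.27 ± 0.32 CPM (SD, n = 3) in male KO Tau to 9.57 ± 1.26 CPM (SD, n = 3) in male WT PBS. Its female minus male difference was 0.01 in log2, with a 95% interval of -0.25 to 0.27. No comparison reached an unadjusted p under 0.05 for Slc16a7. The annotation places 179 bases of its 11839 exonic bases opposite the antisense gene Gm47862, for which the count table has no row.

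Bsg (chromosome 10, 79704491 to 79711969, plus strand) encodes basigin, the glycoprotein that MCT1 and MCT4 need to reach the cell surface. Its group means ran from 432 ± 59 CPM (SD, n = 3) in female KO Tau to 484 ± 79 CPM (SD, n = 3) in male KO Tau. In male WT Tau the 3 libraries were nearly level, at 449.3, 446.8 and 448.8 CPM, while male KO Tau spanned 398.4, 499.7 and 554.2 CPM. The male KO Tau minus WT Tau difference was 0.13 ± 0.12 (SE) in log2, with an edgeR adjusted p of 0.932. Replicate 711 was the low library, and DESeq2 on those groups without it gave 0.25 with an adjusted p of 0.0244.

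Ldha (chromosome 7, 46841475 to 46855627, plus strand) encodes the muscle-type LDH subunit. It was at 226.4 and 240.7 CPM in female WT Tau and at 194.5, 199.2 and 207.7 CPM in female KO Tau. Male Tau libraries were at 292.5, 259.9 and 299.4 CPM in WT and at 210.5, 341.0 and 299.3 CPM in KO, and male PBS libraries ran from 272.4 to 322.1 CPM. Every female library was below every male library except replicate 711, whose 210.5 CPM lay inside the female range. The female minus male difference under Tau was -0.46 ± 0.12 (SE) in log2, with an edgeR adjusted p of 0.0211. This call was lost on leaving out replicate 773 of male WT Tau (adjusted p = 0.058), 713 of male KO Tau (0.0543) or 331 of female WT Tau (0.094), with differences of -0.43, -0.44 and -0.42. It was also lost with the choroid plexus score as covariate, at -0.48 with an adjusted p of 0.0526. It was not called for genotype or Tau, and the averaged KO effect was -0.06 with a 95% interval of -0.23 to 0.12. The annotation also names the pseudogenes Ldha-ps and Ldha-ps2, and reads shared with them could be missing from or added to the Ldha count.

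Ldhb (chromosome 6, 142490249 to 142507957, minus strand) encodes the heart-type subunit. In WT males it was tightly grouped, at 437.2, 430.0 and 422.3 CPM under PBS and 423.4, 406.2 and 411.4 CPM under Tau. In KO males it spread over 324.2, 608.4 and 440.6 CPM under PBS and 419.3, 552.8 and 545.5 CPM under Tau. Male KO PBS thus held both the lowest and the highest Ldhb level of all 17 libraries, in replicates 751 and 752. These are the libraries that stood apart in dentate granule, endothelial and striatal markers, and the part of that make-up in their Ldhb levels was not tested. The male KO PBS minus WT PBS difference was 0.14 in log2, and between -0.12 and 0.33 on leaving out 1 library. The male KO Tau minus WT Tau difference was 0.31 ± 0.18 (SE) in log2, with an edgeR adjusted p of 0.927. Replicate 711 was the lowest of the 3 KO Tau libraries, and without it DESeq2 on those groups gave 0.42 with an adjusted p of 1.15e-07, and 0.36 with an adjusted p of 1.86e-06 against male WT PBS. Those 2 settings called 9.23% and 6.91% of all genes. By edgeR without the same library, Ldhb was not called in either comparison. Female libraries were at 562.5 and 429.0 CPM in WT Tau and at 362.7, 406.0 and 478.0 CPM in KO Tau, with the KO lower on average where the male KO Tau was higher. The sex by genotype interaction was -0.52 ± 0.21 (SE) with an unadjusted p of 0.0322 and an adjusted p of 0.978, and by DESeq2 without replicate 711 it was -0.64 with an adjusted p of 0.0283.

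Slc2a1 (chromosome 4, 119108711 to 119137983, plus strand) encodes the carrier of the blood-brain barrier. It was at 137.6 and 133.2 CPM in female WT Tau and at 105.7, 114.3 and 136.3 CPM in female KO Tau. Male libraries were at 77.5, 87.8 and 87.8 CPM in WT PBS, 77.3, 86.4 and 84.1 CPM in WT Tau, 63.6, 80.0 and 97.4 CPM in KO PBS and 86.2, 78.1 and 81.1 CPM in KO Tau. The 5 female libraries and the 12 male libraries did not overlap. Mean levels were 125 ± 14 CPM (SD, n = 5) in female and 82.2 ± 4.0 CPM (SD, n = 6) in male Tau libraries, and the log2 difference was 0.56 ± 0.07 (SE) with an edgeR adjusted p of 0.00247. The call was kept on leaving out any 1 library. Replicate 711, which resembled the female libraries for Ldha, did not do so for Slc2a1. The annotation places 105 bases of its 3506 exonic bases opposite the antisense gene Gm12868, for which the count table has no row.

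Slc2a3 (chromosome 6, 122727809 to 122801640, minus strand) was at 106.7 and 130.8 CPM in female WT Tau and at 107.8, 98.1 and 116.7 CPM in female KO Tau. Male Tau libraries were at 154.6, 134.9 and 169.9 CPM in WT and at 85.7, 188.3 and 155.2 CPM in KO. Replicate 711 was below all 5 female libraries, and the other 11 male libraries were above them. The difference was -0.45 ± 0.17 (SE) in log2, with an edgeR adjusted p of 0.0766. Without replicate 711 it was -0.56 with an adjusted p of 0.00212, in a fit that called 40.7% of all genes and 4 of these 8 genes (Slc2a1, Slc2a3, Ldha and Slc16a3). With replicate 711 kept, Slc2a3 was called by voom, at -0.53 with an adjusted p of 0.00701. It was also called by edgeR fitted to all 17 libraries, at -0.45 with an adjusted p of 0.0346.

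Slc2a1 and Ldha, the genes called between the sexes, and Slc16a3, called without replicate 711, are textbook targets of hypoxia-inducible factors. The core element of these factors reads ACGTG or GCGTG, and only ACGTG was searched. The 150 bases before the RefSeq start (GRCm38.p6) of these genes are shown 5′ to 3′ on the gene's strand. Each match to ACGTG or its complement CACGT is in capitals. The stretches are chr7:46845654-46845803 for Ldha, chr4:119108595-119108744 for Slc2a1 and chr11:120948917-120949066 for Slc16a3, all on the plus strand.
Ldha: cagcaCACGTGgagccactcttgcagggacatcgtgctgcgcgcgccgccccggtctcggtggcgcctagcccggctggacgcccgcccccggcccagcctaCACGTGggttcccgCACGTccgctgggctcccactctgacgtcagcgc
Slc2a1: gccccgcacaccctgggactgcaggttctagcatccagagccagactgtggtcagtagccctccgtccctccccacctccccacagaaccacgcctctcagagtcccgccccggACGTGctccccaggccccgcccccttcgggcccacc
Slc16a3: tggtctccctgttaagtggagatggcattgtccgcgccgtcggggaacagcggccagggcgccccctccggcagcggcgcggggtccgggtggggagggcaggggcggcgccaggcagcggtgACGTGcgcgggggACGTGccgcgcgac
The Ldha stretch held 5 matched positions, of which those inside each CACGTG count on both strands, against 2 for Slc16a3 and 1 for Slc2a1. A match was present in 11.2% of 32851 promoter windows over the same 150 bases, and 4.67% held 2 or more matched positions. The stretches before Slc16a1 and Ldhb and before a second Ldha start held 0 matches to ACGTG, and GCGTG was not counted in any stretch. Slc16a1 held 3 matches to ACGTG over its whole window of 300 bases. Such a match describes the letters and does not show binding. Of the genes that hold one, Slc2a1 was higher in the female libraries and Ldha was lower.

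Because each ratio is formed within 1 library, paired genes were also compared as ratios of length-scaled counts. The Slc2a1 to Slc2a3 ratio was 2.66 and 2.10 in female WT Tau and 2.03, 2.41 and 2.41 in female KO Tau. In male Tau it was 1.03, 1.32 and 1.02 in WT and 2.08, 0.857 and 1.08 in KO. Female ratios were above all male ratios except that of replicate 711. The difference was 0.98 in log2, with a two-sided exact permutation p of 0.01 from 200 arrangements and an adjusted p of 0.045 over 9 tests. On ranks of the ratio the adjusted p was 0.0675, so the call was lost, and it was lost in 11 of 18 alternatives in all, most of which leave out 1 library and so have fewer arrangements. The Ldha to Ldhb ratio was 0.191 to 0.266 in the 5 female libraries and 0.238 to 0.345 in the 6 male Tau libraries, with overlap. Its difference was -0.36 in log2, again with an exact permutation p of 0.01 and an adjusted p of 0.045, and it lost the call in 11 of 18 alternatives too, ranks included. The Slc16a1 to Slc16a7 ratio differed by 0.04 between the sexes, and none of the 3 ratios was called for genotype or Tau (adjusted exact permutation p of 0.499 or more).

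**Figure D3:**
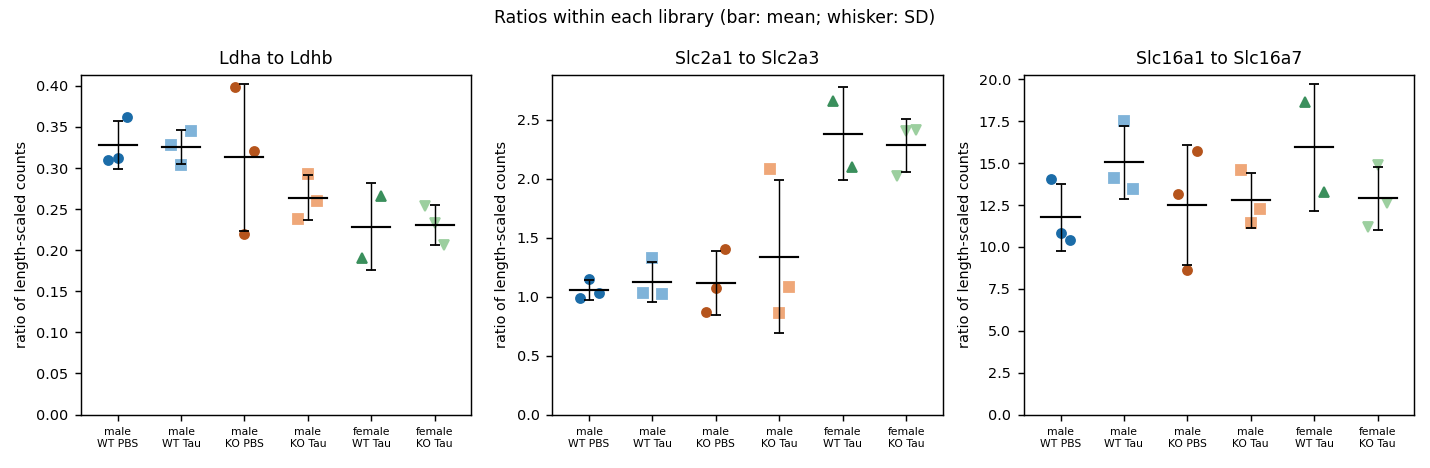
Ratios of length-scaled counts within each library by group (linear axes from 0), with the group mean as a bar and the SD as a whisker. The Slc2a1 to Slc2a3 ratio lies at 2.03 to 2.66 in female libraries and at 0.857 to 1.40 in 11 of 12 male libraries, with male KO Tau replicate 711 at 2.08.

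Markers of several cell types moved with the same comparison, in which 1757 of 15419 genes were called higher and 1917 lower in females (23.8% together). Summed markers of endothelium, where Slc2a1 is abundant, were at 485 to 688 CPM in female and 362 to 510 CPM in male Tau libraries, and 8 of 16 markers were called higher in females, with a median log2 difference of 0.40. Summed astrocyte markers were at 7423 to 8119 against 3655 to 7064 CPM, with 6 of 10 called higher. Microglial markers were at 650 to 783 against 497 to 676 CPM, with 5 of 10 called higher, and 4 of 9 thalamic markers were called higher. CA1 pyramidal markers were at 506 to 1046 against 755 to 1080 CPM, with 2 of 9 called lower, near that background. Nuclear-retained RNAs were at 3959 to 6477 CPM in female and 2941 to 6474 CPM in male Tau libraries, with 0 of 7 called. Red blood cell markers were at 4.76 to 48.4 against 2.50 to 7.70 CPM, and the 1 marker tested was called higher. In bulk tissue, fewer cells of a type and less RNA per cell cannot be told apart. With the endothelial marker score as a covariate, the Slc2a1 difference was 0.40 with an edgeR adjusted p of 0.486 and the Ldha difference was -0.07 with an adjusted p of 0.968, in a fit that called 7 of 15419 genes. That score itself differed between the sexes, and the part of each cell type in these differences was not tested.

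**Figure D4:**
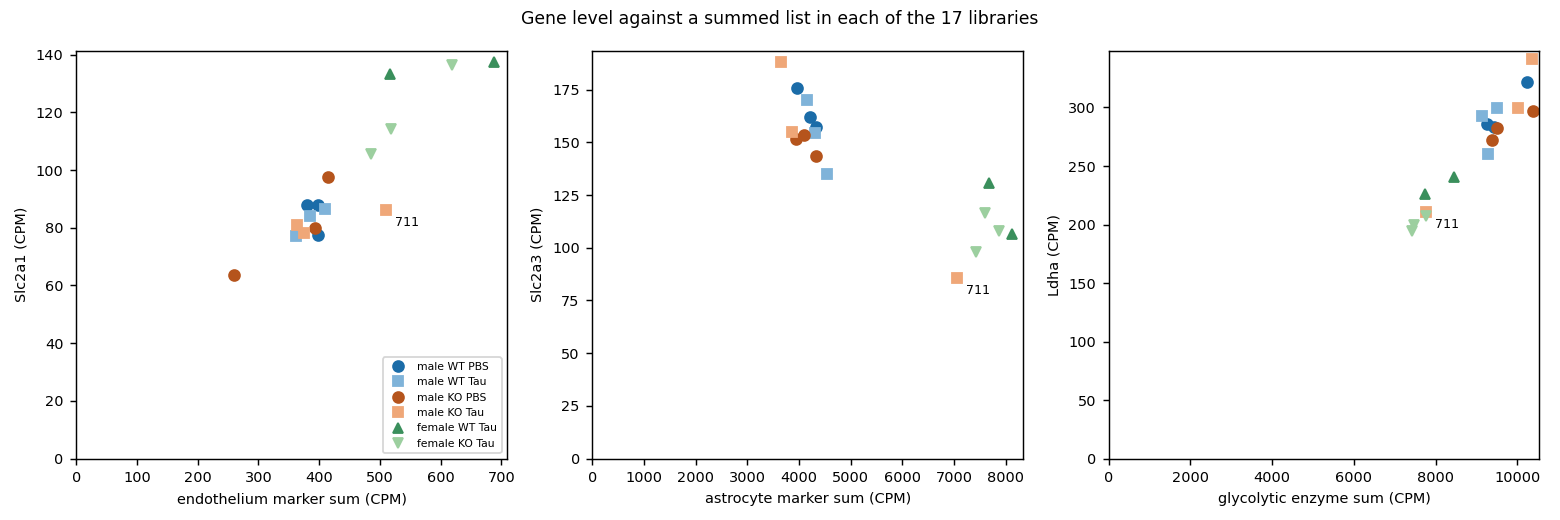
Level of Slc2a1, Slc2a3 and Ldha (CPM, vertical axes) against summed endothelium markers, astrocyte markers and glycolytic enzymes (CPM, horizontal axes) in the 17 libraries, with symbols for the groups and all axes from 0. Female libraries sit at high endothelium (485 to 688 CPM) and astrocyte sums (7423 to 8119 CPM), and male KO Tau replicate 711 lies near them for Slc2a3 and Ldha.

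Ldha was lower in the female libraries together with most of the glycolytic enzymes upstream of it. In the female against male comparison, 11 of 18 glycolytic genes tested were called (23.8% of all genes), 10 lower and 1 higher, with a median log2 difference of -0.39 beside -0.01 over all genes. Eno2, the neuronal enolase, differed by -0.69 and Gapdh by -0.65 in log2. Aldoa (-0.63) and triose phosphate isomerase Tpi1 (-0.45) were also lower, and were picked out after their values were seen. Aldoc, the aldolase known from astrocytes, went the other way, at 0.77 with levels of 1528 to 2034 CPM in female and 903 to 1370 CPM in male Tau libraries. Summed glycolytic enzymes stood at 7424 to 8442 CPM in female libraries and, in male KO Tau, at 7766 CPM in replicate 711 and 10354 and 10022 CPM in the others.

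Among the other carriers, 5 of 12 hexose carriers were called between the sexes, where 23.8% of all genes were, with Slc45a1 (-0.55), Slc2a6 (-0.48), Slc2a8 (-0.35) and Slc37a4 (-0.27) lower and the insulin-responsive carrier Slc2a4 higher (0.67, at 1.83 to 2.49 against 0.757 to 1.56 CPM). Of 14 other monocarboxylate carriers, 2 were called, both lower. Slc16a11 was among them at -0.47, while Slc16a13 stood at -0.43 with an edgeR adjusted p of 0.0558. Of 12 genes of pyruvate entry into mitochondria, Pdk4, an inhibitory kinase of pyruvate dehydrogenase, was higher (0.72) and Pdk2 was lower (-0.33), while the phosphatase Pdp2 stood at 0.30 with an adjusted p of 0.078. The shares called among the other monocarboxylate carriers and the genes of pyruvate entry were below the 23.8% of all genes. Of 14 other hypoxia-response genes, 4 were called, a share near that background, all higher, namely Adm (0.86), Epas1 (0.74), Ddit4 (0.50) and Vegfa (0.47). Egln3 was lower instead, at -0.47, but was not called (edgeR adjusted p of 0.0652). Within the females, Adm was lower in KO than in WT Tau libraries, at -1.01 (unadjusted p of 0.00467, edgeR adjusted p of 0.997). The only other lactate dehydrogenase gene tested, Ldhd, differed by 0.07 and was not called. None of these 6 lists had a called gene in any comparison of genotype or Tau. In the averaged Tau effect in males, the carriers with the lowest p were Mpc2, a subunit of the mitochondrial pyruvate carrier (0.21 ± 0.07, SE), Slc16a14 (-0.38 ± 0.13, SE) and Slc2a12 (1.06 ± 0.39, SE), each with an edgeR adjusted p of 0.888. In the averaged KO effect, Slc16a8 stood at 0.88 ± 0.53 (SE) and Pfkm, the muscle-type phosphofructokinase, at 0.13 ± 0.08 (SE), each with an adjusted p of 0.987.

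**Figure D5:**
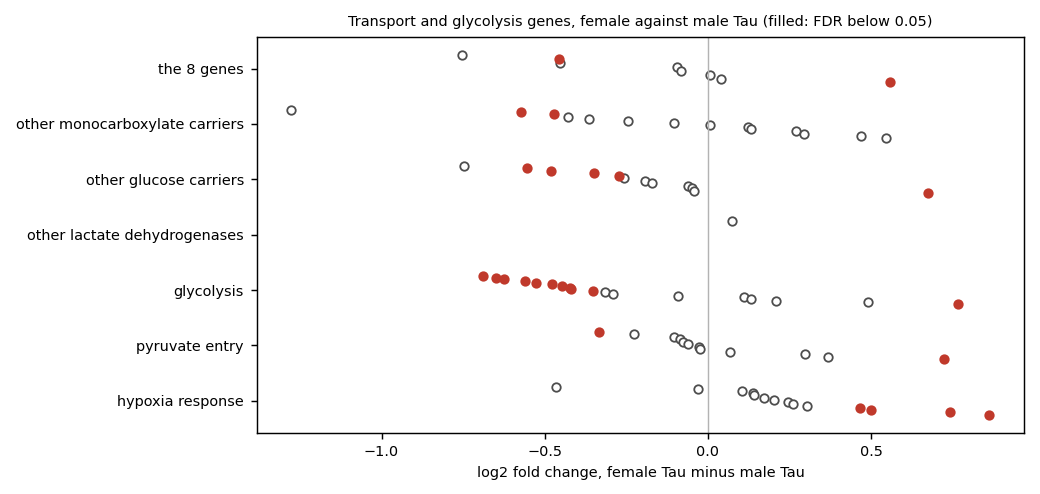
Log2 fold change, female minus male Tau libraries, of each tested gene in the 8-gene set and the 6 related lists (1 point a gene, filled for an adjusted p below 0.05 by edgeR). Of 18 glycolytic genes 10 are filled on the lower side, and the 4 filled hypoxia-response genes lie on the higher side.

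The genes whose levels followed each of the 8 most closely were named by Pearson's r of log2 CPM over the 17 libraries, a description in which all points share group, sex and library composition. For Ldha these were Tpi1 (0.987), the clathrin adaptor subunit Ap2m1 (0.985) and mitochondrial malate dehydrogenase Mdh2 (0.980). For Slc2a1 they were Ly6c1 (0.968), Nfkbia (0.940) and Ly6a (0.935), of which Ly6c1 and Ly6a belong to the endothelium list. For Slc2a3 they included the vacuolar ATPase genes Atp6ap1 (0.957) and Atp6v1b2 (0.950). Slc16a1 was followed by Trim59 (0.891), Piga (0.874) and the oligodendrocyte tetraspanin Tspan2 (0.866). Slc16a3 was followed by Kank4 (0.940), Grb7 (0.929) and Tmem138 (0.910), Bsg by Klhdc4 (0.913), Dusp26 (0.887) and Gpr108 (0.881), and Ldhb by Ift27 (0.936), Cadm4 (0.914) and Tmem218 (0.904). Slc16a7 had the weakest likeness of the 8, with Kcnt2 (0.752), Palm2 (0.749) and Mtpn (0.746).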

How the data were processed

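Poly(A) RNA-seq libraries were made by the submitters from slices of dorsal hippocampus. The authors aligned reads to mm10/GRCm38 with STAR 2.5.2 and deposited 1 table of raw counts per gene symbol from HTSeq 0.9.1, run over exons with the reverse-strand setting. The annotation release is not given in the sources used here. Each column was matched to its sample by title. Counts were normalized by TMM, filtered with filterByExpr (minimum count 10) and tested with edgeR 4.0.16 (quasi-likelihood F-test, Benjamini-Hochberg adjustment over all genes tested, threshold 0.05). Male comparisons used the 12 male libraries, sex comparisons the 11 Tau libraries, and comparisons over all strata all 17. Levels are CPM of the total count, and RPKM used exon lengths from GENCODE M21. Positions are from that annotation and promoters from RefSeq. Of 136 pairs of libraries, 0 were identical, and the smallest chi-square per gene was 3.47. Ratios were tested by exact permutation within strata. Alternatives included DESeq2 1.42.0, limma 3.58.1 (voom with quality weights), other normalization and filters, marker scores as covariates and leaving out each library. The test was checked on simulated counts. Named were the 8 genes, Acss2, up to 3 genes per related list and comparison with the lowest p (the report gives those of the sex comparison and the lowest of others), and for each of the 8 the 3 genes with the highest r. Aldoa, Tpi1, Slc2a4, Slc2a6, Vegfa and Egln3 were named after their values were seen. Of the genes this rule gives, 2 are not reported here. Members and gene lists were chosen with earlier results of these data known.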

Additional observations from a re-analysis of the deposited data

How the results depend on the processing

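Of 2008 member fold changes under alternatives, 1989 kept their side of the threshold with no sign change at an unadjusted p under 0.05, and 173 changed sign, 2 of them at such a p. With the endothelium score as covariate, the female minus male differences of Slc2a3 and Slc16a3 turned positive, at 0.195 and 0.150, and no member was called in that comparison or among the 6 groups (0 and 0). The cause was not tested. The number of members called between the sexes, 2 by the main test, was 1 with the choroid plexus score and 4 by DESeq2 without replicate 711, and leaving out 1 library gave 1 to 4. Among the 6 groups, also 2, it was 6 by voom and 1 to 4 on leaving out 1 library. Calls over all genes, 3674 and 2967 in the main test, moved as well. On leaving out 1 library they ran from 628 to 6290 between the sexes and from 1664 to 4703 among the 6 groups. Over the other alternatives they ran from 7 to 6392 and from 8 to 7107. DESeq2 on the groups compared without replicate 711 called 1 member for male KO Tau against WT PBS, where 1033 genes were called overall. It called 3 members against WT Tau (1386 genes overall) and 1 for the sex by genotype interaction. For that interaction, at most 185 genes were called in any alternative. The sex difference in ratios was -5.75 ranks for Ldha to Ldhb and 7.92 ranks for Slc2a1 to Slc2a3 when ranked (adjusted exact permutation p = 0.0675 each). It was -0.48 to -0.24 and 0.84 to 1.16 in log2 on leaving out 1 library, where fewer arrangements raise the smallest p. No paired analysis was possible because the library numbers are unique to each library. With 2 or 3 libraries a group, small differences, above all of Slc16a3 at 27 to 136 counts, were not detectable.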
